A study of Mus musculus with 9 samples.

Results

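CD24+Tomato+ cells were compared with Tomatoneg cells, and both were sorted epithelial cells of the small intestine of NFKO mice. The members of the comparison are the 13874 genes, of 35013 gene symbols listed, whose normalized count averaged 10 or more over 6 libraries. All mice carried Neurog3Cre, which removes the floxed FoxO1 alleles (FoxO1 f/f) and turns on a tdTomato reporter (Rosa26tdtomato) in cells that have expressed Neurog3 and in their progeny. Primary epithelial cells came from animals of 4 to 6 weeks of age, with attached pancreata dissected away, and were stained for CD24 and Epcam before sorting. CD24+Tomato+ cells (3 libraries) are Neurog3-derived cells with CD24 on their surface. Tomatoneg cells (3 libraries) are the cells of the same genotype without the reporter, so they keep the floxed FoxO1 alleles except where recombination and the reporter did not go together. The comparison therefore sets a FoxO1-deleted lineage and sort gate against the other cells of the same genotype. No library with intact FoxO1 in the Neurog3 lineage was among the groups, so lineage, CD24 gate and FoxO1 deletion cannot be told apart. The whole series holds 9 libraries, and the 3 CD24negTomato+ libraries were not used here because they were normalized in another table. The labels call the replicates biological, and they do not say whether a library came from 1 mouse or from pooled mice.

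The intestinal epithelium renews itself from crypt stem cells, whose daughters become absorptive enterocytes or, where Notch signalling is low and Atoh1 is on, secretory cells. Secretory cells comprise EEC, which store hormones in dense-core granules, goblet cells, which secrete mucin, Paneth cells, which release antimicrobial peptides into the crypt, and tuft cells, which sense luminal chemicals. Neurog3 is the transcription factor that starts the EEC program and is on only for a short time, so the reporter remains as a record of its earlier expression. CD24 is a small surface glycoprotein used in the mouse gut to enrich EEC, Paneth and tuft cells.

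Values are normalized counts, that is, read counts per gene estimated by the authors and divided by their DESeq2 normalization factors, and 3 values given for a group are always replicates 1, 2 and 3. Fold changes are differences of group means of log2(normalized count + 1), CD24+Tomato+ minus Tomatoneg, with their SE, and P values come from limma with Benjamini-Hochberg adjustment over all 13874 genes (n = 3 per group, threshold 0.05). Totals were 22594850 to 28820457 normalized counts per library. Estimated depth was 27723742 to 39240059 reads for CD24+Tomato+, and Tomatoneg libraries had 19239035 to 24373149 reads. At this depth 3 reads corresponded to a normalized count of 2.10 to 2.92 for CD24+Tomato+ and of 3.34 to 4.29 for Tomatoneg, and this limit covers counting error only. Tomatoneg replicate 1 stood apart. It had 13025 genes above 0 against 15644 to 18530 in the other 5 libraries, and 13.1% of the tested genes were listed at 0 in it against 0.908% to 3.68% in the others. Pearson's r of log2 values over the tested genes was 0.835 and 0.864 between it and the other Tomatoneg libraries, 0.927 between the remaining pair, and 0.927 to 0.959 among CD24+Tomato+ libraries. Fold changes of genes at 0 in Tomatoneg replicate 1 depend on the pseudocount. CD24+Tomato+ replicate 1 differed from its group in Paneth genes, as given below with those genes. The sample-sheet numbers at the end of the library descriptions put replicate 1 of both groups in a range apart from replicates 2 and 3, although no label names a batch. With replicates 2 and 3 alone 1030 genes were higher and 758 lower in CD24+Tomato+ cells, of the 13874 tested. In bulk RNA, fewer cells of a type and less RNA per cell cannot be told apart.

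Foxo1, the target of the deletion (chr3:52268336-52353221, GRCm38, + strand), was read at 319, 193 and 201 in CD24+Tomato+ libraries and 748, 529 and 444 in Tomatoneg libraries. The groups did not overlap, and Tomatoneg was the higher. The log2 fold change of Foxo1 was -1.27 ± 0.36 and its adjusted P was 0.0579, so it missed the threshold. When the replicate number was added as a block, its adjusted P was 0.0219, and over all alternatives run it was between 0.0178 and 0.241. These values are for the whole gene, not for the floxed part. Cd24a, which encodes the sorted antigen (chr10:43578284-43584265, GRCm38), had 25857, 30949 and 28118 in CD24+Tomato+ and 3170.3, 5914 and 3678 in Tomatoneg libraries. It was 2.78 ± 0.28 log2 units higher (adjusted P = 0.003), which checks the gate and is not a result. Epcam, the pan-epithelial antigen of the sort, was at 22504, 20987 and 20915 against 37673, 27533 and 24175. It did not pass the test (log2 fold change -0.45 ± 0.28, adjusted P = 0.343), and the highest CD24+Tomato+ library was under the lowest Tomatoneg library. Neurog3 itself (chr10:62133090-62134763, GRCm38) was still read at 1319, 1345 and 1364 in CD24+Tomato+ libraries, against 102, 149 and 182 in Tomatoneg libraries. The 3 CD24+Tomato+ values lay close together, far above the Tomatoneg values, and the log2 fold change was 3.25 ± 0.31 (adjusted P = 0.00231).

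In all, 1113 genes were higher and 678 genes lower in CD24+Tomato+ cells. These are 8.02% and 4.89% of the genes tested, the background against which each list below is read. Every one of them had the same direction in all 3 same-numbered pairs. A gene past the threshold with 3 libraries per group nearly always has this, so it is no separate support for the calls. The rises were larger than the falls, with a median log2 fold change of 3.84 among higher genes and -1.64 among lower genes, while the median over all tested genes was 0.16. Part of the size of the rises rests on zeros: 85 of the higher genes were listed at 0 in all 3 Tomatoneg libraries and 425 (38.2%) in Tomatoneg replicate 1. Without that library, 1091 of the higher and 608 of the lower genes were still called. The split between directions depends on the scaling. After quantile normalization, which moved the median of all genes by -0.18 to -0.02, 991 genes were higher and 1036 lower. Under the replicate block 1504 genes (10.8%) passed as higher and 1381 (9.95%) as lower, among them 1029 of the higher and 669 of the lower genes above. Calls were fewer when 1 CD24+Tomato+ library was left out, with 338 higher and 323 lower genes without replicate 1, 107 and 30 without replicate 2, and 237 and 96 without replicate 3. In 2997 genes (21.6%) every CD24+Tomato+ value was above every Tomatoneg value, and in 2001 genes (14.4%) every value was below.

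**Figure D1:**
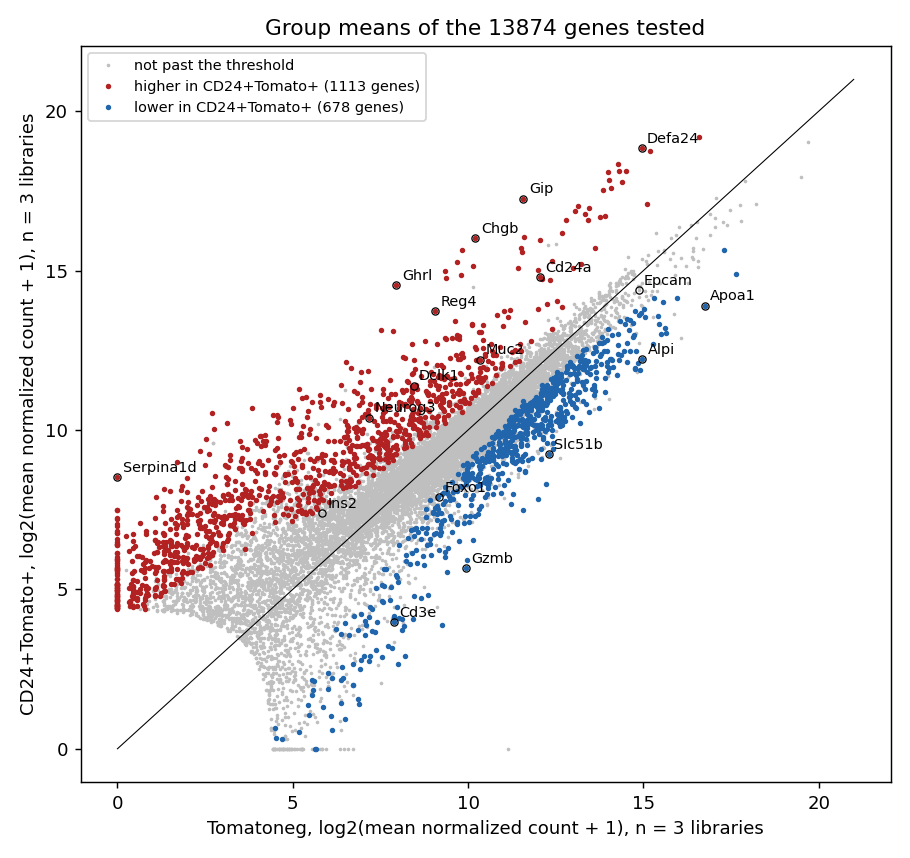
Mean level of each of the 13874 genes tested, as log2(mean normalized count + 1), in Tomatoneg (horizontal axis) and CD24+Tomato+ cells (vertical axis), n = 3 libraries each. Red points are the 1113 genes higher and blue points the 678 genes lower in CD24+Tomato+ cells, grey points did not pass the threshold, and the line marks equal means. Hormone and defensin genes lie far above the line, Gzmb and Cd3e far below it, and Foxo1 is a grey point below it.

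Hormone and EEC marker genes were higher in CD24+Tomato+ cells. All 17 genes of the EEC list rose, against 8.02% of all genes, with a median log2 fold change of 5.25. The summed level of the list was 565331, 563756 and 365547 in CD24+Tomato+ libraries and 13070, 17318 and 9266 in Tomatoneg libraries. Replicate 3 was the lowest library of each group, and without Tomatoneg replicate 1 all 17 still rose, with a median of 5.26.

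Ghrl, which encodes ghrelin, the peptide of X cells that stimulates appetite, was at 18320, 30053 and 22835 in CD24+Tomato+ and 159, 348 and 235 in Tomatoneg libraries (6.62 ± 0.33, adjusted P = 0.000774). Sst, for somatostatin, the D cell peptide that restrains other endocrine cells, was at 59241, 62671 and 30735 against 932, 1535 and 273 (6.05 ± 0.62, adjusted P = 0.0031). Gip, the incretin of K cells, was at 164148, 174626 and 129277 against 2535, 3973 and 2667 (5.69 ± 0.29, adjusted P = 0.000774). None of these groups overlapped, and for Ghrl and Gip the spread among CD24+Tomato+ libraries was small beside the distance to Tomatoneg. Sct (secretin, which drives bicarbonate secretion) had 39739, 37446 and 20875 against 496, 968 and 477 (5.68 ± 0.37, adjusted P = 0.00102). Nts, for neurotensin, had 55348, 46492 and 17652 against 729, 1353 and 383 (5.62 ± 0.57, adjusted P = 0.00288). Pyy, the satiety peptide of L cells, had 12038, 8993 and 6004 against 197, 246 and 98.6 (5.68 ± 0.40, adjusted P = 0.00107). In these 3 genes replicate 1 was the highest and replicate 3 the lowest of the CD24+Tomato+ libraries, and each stayed far above every Tomatoneg value. Gcg, the proglucagon gene from which GLP-1 is cut, did not follow that order, with 25217, 32483 and 31102 against 499, 1574 and 617 (5.22, adjusted P = 0.0014). Cck (cholecystokinin, of I cells) was 5.54 and Tac1 (substance P) 4.79 log2 units higher. Hormones of K, L, I, X, D and S cells and a peptide of enterochromaffin cells were thus among the genes that rose. Insl5, a peptide of colonic L cells, was at 11.7, 45.4 and 60.8 and listed at 0 in all 3 Tomatoneg libraries, and Gal (galanin) was at 31.9, 19.6 and 40.9 against 0, 1.11 and 0. Both were low genes, and no fold change is given for Insl5.

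Hormone precursors and granule proteins are matured and stored by a shared machinery of granins, prohormone convertases and granule membrane proteins, and this list rose as a whole. All 15 genes were called (median 5.25), without Tomatoneg replicate 1 as well. Chgb, a granin that condenses hormone cargo, was at 84770.4, 76235 and 37616 in CD24+Tomato+ and 1107, 1861 and 586 in Tomatoneg libraries (5.87 ± 0.48, adjusted P = 0.00152). Its relative Chga was at 48208, 35419 and 24708 against 1419, 1228 and 722 (5.01 ± 0.35, adjusted P = 0.00104). Scg2, a further granin, had 4886, 4381 and 1642 against 165, 150.3 and 50.6 (4.91 ± 0.58, adjusted P = 0.00535). In all 3 granins the lowest CD24+Tomato+ library, replicate 3, was far above the highest Tomatoneg library. Pcsk1, the convertase that cuts proglucagon and other prohormones, was at 4009.7, 3072 and 1946 against 272, 171 and 213 (3.74 ± 0.33, adjusted P = 0.00184), and Pcsk2, the second convertase, was 3.75 log2 units higher. Cpe, the carboxypeptidase that trims the cut peptides, had 10416, 9611 and 6345 against 275, 268 and 155 (5.25 ± 0.31, adjusted P = 0.00102). Pam, which amidates peptides, was 2.55 log2 units higher and the smallest rise of the list. Ptprn and Ptprn2, phosphatase-like proteins of the granule membrane, were 7.03 and 4.29 log2 units higher, and Ptprn was listed at 0 in Tomatoneg replicate 1.

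The promoters of Sst, Chgb, Pcsk1 and Scg2 are shown because these leading members of the EEC and granin lists share the letters of a full cAMP response element within 100 bases of their start sites. Sequences are RefSeq promoter windows (GRCm38.p6), 5′ to 3′ on the strand of the gene and ending at the base before the start site, with TGACGTCA in capitals.
Sst (chr16:23890845-23890944, - strand): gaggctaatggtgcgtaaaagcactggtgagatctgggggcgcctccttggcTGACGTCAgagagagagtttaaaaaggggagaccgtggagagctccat
Chgb (chr2:132781542-132781641, + strand): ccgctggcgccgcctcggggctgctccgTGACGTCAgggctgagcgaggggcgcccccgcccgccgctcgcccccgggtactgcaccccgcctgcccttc
Pcsk1 (chr13:75089757-75089856, + strand): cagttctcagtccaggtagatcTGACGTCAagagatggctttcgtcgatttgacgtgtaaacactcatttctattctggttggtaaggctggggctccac
Scg2 (chr1:79440027-79440126, - strand): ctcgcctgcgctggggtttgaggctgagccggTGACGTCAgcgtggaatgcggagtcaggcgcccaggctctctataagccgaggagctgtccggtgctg
The element began 48 (Sst), 72 (Chgb), 78 (Pcsk1) and 68 (Scg2) bases before the start site. TGACGTCA reads the same on both strands. It was in 3 of 16 EEC list genes with a window of 300 bases (18.8%), in 3 of 13 granin and processing genes (23.1%) and in 332 of the 10619 tested genes with a window (3.13%). Over all genes that rose the share was 2.64%, and over those that fell it was 2.7%. Chgb and Pcsk1 are on both lists. A match is a stretch of letters, and binding was not measured.

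Transcription factors of the EEC program rose in 21 of 23 genes (median 4.63). Insm1, a repressor needed for endocrine differentiation, was at 3077, 2036 and 2075 in CD24+Tomato+ and 72.1, 162 and 85.4 in Tomatoneg libraries (4.54 ± 0.38, adjusted P = 0.00152). Neurod1, which acts downstream of Neurog3, was at 2844, 1864 and 874 against 195, 52.2 and 6.74 (5.27 ± 1.10, adjusted P = 0.0236). Fev, a factor of serotonin cells and endocrine progenitors, had 1633, 1817 and 1815 against 63.7, 81.9 and 65.8 (4.63 ± 0.29, adjusted P = 0.00102). Fev varied little among CD24+Tomato+ libraries, and Insm1 was highest in CD24+Tomato+ replicate 1. Neurod1 was highest in replicate 1 of both groups and lowest in replicate 3 of both. Rfx6, required for the peptide-secreting EEC, had 2029, 1453 and 613 against 0, 52.5 and 16.1 (6.97, adjusted P = 0.0203). Lmx1a, a regulator of enterochromaffin cells, had 1188, 727 and 403 against 0, 38.7 and 5.6 (6.78, adjusted P = 0.0173). Pax4, a progenitor factor, had 421, 493 and 424 against 0, 17.8 and 12.7 (6.13, adjusted P = 0.0161). Each of these 3 was listed at 0 in Tomatoneg replicate 1, and none overlapped with Tomatoneg. Isl1 (of several EEC types) was 4.89, Nkx2-2 6.22 and Pax6 3.69 log2 units higher. Neurod2 did not pass (log2 fold change 2.78, adjusted P = 0.081). Pdx1, the factor shared by duodenum and pancreas, was at 514, 381 and 269.7 against 518, 312 and 270.2, with overlapping groups (log2 fold change 0.09 ± 0.39, adjusted P = 0.904).

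**Figure D2:**
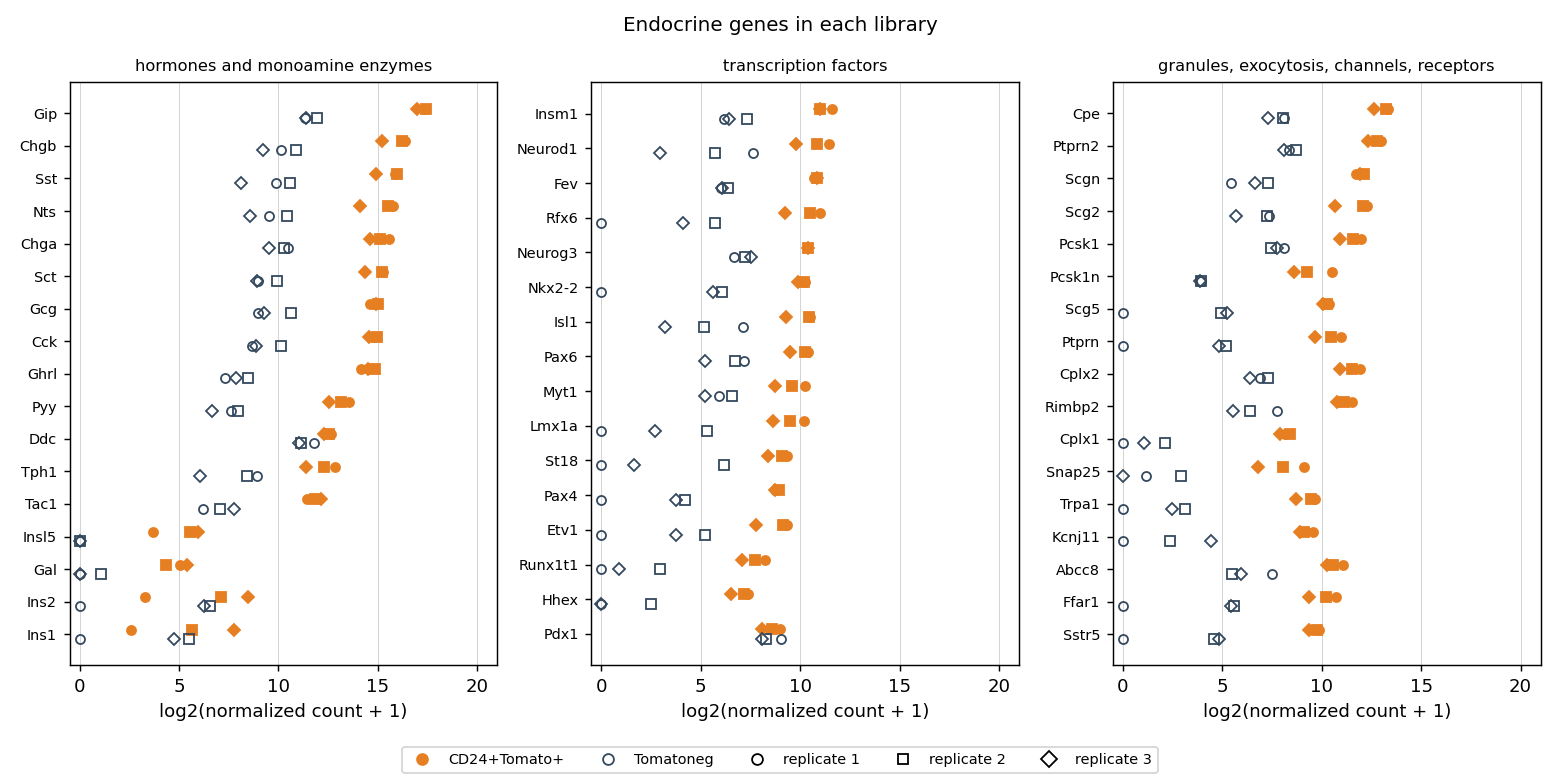
Level of endocrine genes in each library as log2(normalized count + 1), with hormone and monoamine genes, transcription factors, and granule, exocytosis, channel and receptor genes in separate panels. Filled orange symbols are CD24+Tomato+ and open symbols Tomatoneg libraries, the shape gives the replicate, and values at 0 sit at the left edge. Groups are apart for every gene shown except Ins1, Ins2 and Pdx1, which overlap.

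Proteins that dock and fuse granules rose in 16 of 19 tested genes (median 3.84), and the groups did not overlap in any of the 19, against 21.6% of all genes. Snap25, a SNARE of the plasma membrane, was at 544, 261 and 109 in CD24+Tomato+ and 1.21, 6.5 and 0 in Tomatoneg libraries (6.62 ± 1.02, adjusted P = 0.00983). Cplx1, a complexin that clamps the SNARE complex, was at 279, 335 and 238 against 0, 3.34 and 1.12 (7.07 ± 0.80, adjusted P = 0.00432). All 3 Tomatoneg values of Cplx1 were at or under the level of 3 reads. Rab3c, a granule GTPase, had 949, 1038 and 761 against 30.4, 12.1 and 9.57 (5.80 ± 0.55, adjusted P = 0.00231). Syt7, the calcium sensor of slow granule release, was 3.26 and Vamp2, the granule SNARE, 1.61 log2 units higher, the latter the smallest called change. Stx1a, Rab3a and Rims2 did not pass (adjusted P = 0.077, 0.0723 and 0.143). With the block 18 genes of the list rose, Stx1a and Rab3a among them.

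Channels that couple stimuli to secretion rose in 12 of 13 genes (median 4.92). Trpa1, the irritant receptor of enterochromaffin cells, was at 802, 708 and 414 in CD24+Tomato+ and 0, 7.79 and 4.51 in Tomatoneg libraries (7.41 ± 0.91, adjusted P = 0.00555). Scn3a, a voltage-gated sodium channel, had 1597, 673 and 272 against 0, 7.83 and 6.38 (7.37 ± 1.06, adjusted P = 0.00853), and it was far higher in replicate 1 than in the other CD24+Tomato+ libraries. Kcnj11, the pore of the ATP-sensitive potassium channel, had 751, 544 and 482 against 0, 4.12 and 20.4 (6.93 ± 1.09, adjusted P = 0.0101). Its partner Abcc8, the sulfonylurea receptor, was at 2125, 1527 and 1219.7 against 180.2, 44.4 and 61.4 (4.30 ± 0.55, adjusted P = 0.00611). Both subunits of that channel were therefore raised in all 3 pairs. Of the calcium channel genes, Cacna1a was 3.98, Cacna1h 6.07 and Cacna2d1 6.85 log2 units higher. Kcnma1, the large-conductance potassium channel, did not pass (2.26, adjusted P = 0.068). With the block all 13 rose, Kcnma1 included. Scn9a and Piezo2 were under the mean of 10 and were not tested.

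Among receptors for nutrients and peptides, 10 of 17 rose and 1 fell (median 4.54). Ffar1, the long-chain fatty acid receptor of EEC, was at 1678, 1198 and 661 in CD24+Tomato+ and 0, 46.7 and 42.8 in Tomatoneg libraries (6.43, adjusted P = 0.0289). Sstr5, a somatostatin receptor, had 919.7, 857 and 653 against 0, 23 and 27.4 (6.51, adjusted P = 0.0186). Galr1, a galanin receptor, had 315, 133 and 77.6 against 0, 4.44 and 0 (6.41, adjusted P = 0.0108). All of these were listed at 0 in Tomatoneg replicate 1 and were low in the other Tomatoneg libraries. Ffar2, for short-chain fatty acids, was detected in all 6 libraries and was 3.11 log2 units higher (adjusted P = 0.00974). Ffar4, a further long-chain fatty acid receptor, did not pass, with 508, 776 and 772 against 0, 181 and 249 (adjusted P = 0.205). Vipr1, the receptor for vasoactive intestinal peptide, fell, from 11401, 7164 and 8211 in Tomatoneg to 2913, 1971 and 2173 in CD24+Tomato+ libraries (-1.92 ± 0.26, adjusted P = 0.007). Without Tomatoneg replicate 1, 14 genes of the list rose, and with the block 12 rose and 2 fell.

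The serotonin pathway split between synthesis and clearance. Tph1, the rate-limiting enzyme of serotonin synthesis in enterochromaffin cells, was at 7221, 4953 and 2662 in CD24+Tomato+ and 484, 335 and 66.4 in Tomatoneg libraries (4.36 ± 0.74, adjusted P = 0.0128). Slc18a1, the vesicular monoamine transporter, had 2428, 1603 and 1093 against 403, 369 and 146 (2.53 ± 0.47, adjusted P = 0.0171). Gch1, which makes the cofactor of Tph1, and Ddc, the second enzyme of the path, were 1.75 and 1.19 log2 units higher. Slc6a4, the transporter that takes serotonin up and is also known in enterocytes, went the other way, with 778, 407 and 642 against 2421, 2214 and 2737 (-2.06 ± 0.28, adjusted P = 0.00733). Maoa, which degrades serotonin, had 3265, 2424 and 2543 against 16194, 10821 and 9853 (-2.14 ± 0.26, adjusted P = 0.00536). Counting Trpa1, 5 of 10 tested genes rose and 2 fell (median 2.14). Of the 10, CD24+Tomato+ values were all above Tomatoneg in 6 and all below in 3. Over all genes these shares were 21.6% and 14.4%.

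Insulin transcripts were read in 5 of the 6 libraries, and neither gene passed the test. Ins2 was at 8.64, 135 and 358 in CD24+Tomato+ and 0, 94.3 and 75.3 in Tomatoneg libraries, and Ins1 was at 5, 49.2 and 218 against 0, 44.4 and 25.7. Both genes were at 0 in Tomatoneg replicate 1 and highest in CD24+Tomato+ replicate 3. The groups overlapped, while in each of the 3 same-numbered pairs the CD24+Tomato+ value was the higher. The log2 fold changes were 2.0 ± 2.03 for Ins2 (adjusted P = 0.572) and 1.92 ± 1.81 for Ins1 (adjusted P = 0.541). With the replicate block the adjusted P was 0.138 for Ins2 and 0.214 for Ins1, within ranges over all alternatives of 0.138 to 0.963 and 0.214 to 0.997. With replicates 2 and 3 alone the log2 fold change of Ins2 was 1.37 and the log2 fold change of Ins1 was 1.59. Without Tomatoneg replicate 1 only, which leaves its low CD24+Tomato+ partner in, that of Ins2 was -0.13, and after quantile normalization that of Ins1 was -0.010. Genes of pancreatic acinar cells were measured beside them. The acinar list summed to 5856, 14759 and 18175 in CD24+Tomato+ and 775, 1109 and 1410 in Tomatoneg libraries, and 1 of its 10 tested genes was called. That gene was Clps (colipase), at 5059, 14146 and 13900 against 585, 716 and 1093 (3.69 ± 0.44, adjusted P = 0.00536), which makes up most of the sum. Clps was lowest in replicate 1 of both groups, an order that most Paneth genes below share. The sum therefore mostly follows Clps and does not describe the other 9 tested acinar genes. Ctrb1 (chymotrypsinogen) had 157, 105 and 1161 against 0, 41.1 and 29 and was called only with the block. Pnlip (pancreatic lipase) had 57.1, 23.2 and 453 against 0, 31.1 and 7.85. CD24+Tomato+ replicate 3 was the highest library in 9 of the 10 tested acinar genes, all but Clps, as it was for Ins1 and Ins2. Prss1 (trypsinogen) was listed at 0 in every library, and Amy2b (amylase) was above 0 in CD24+Tomato+ replicate 1 only. The part of acinar RNA in the insulin values was not tested.

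Of 9 islet genes tested, Ins1 and Ins2 among them, 5 rose. Iapp, for amylin, was at 1517, 1128 and 636 in CD24+Tomato+ and 55.4, 113 and 19.6 in Tomatoneg libraries (4.33 ± 0.67, adjusted P = 0.00994). Ucn3, for urocortin 3, had 215, 159 and 159 against 0, 2.22 and 4.48 (6.09, adjusted P = 0.00819). Ppy, for pancreatic polypeptide, had 145, 71.5 and 314 and was listed at 0 in every Tomatoneg library. Abcc8, described above, is on this list as well, and Iapp and Abcc8 are also known in EEC. Factors of β cells were under the mean of 10 and were not tested, with Mafa at 3.28, 3.5 and 0 against 0, 4.44 and 1.12, and Nkx6-1 at 5.73, 11.2 and 10.7 against 5.76, 5.55 and 11.2. Glp1r, the GLP-1 receptor, did not pass (3.25, adjusted P = 0.208). With the block 5 genes of the list rose and 1 fell.

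Paneth cell genes rose in 11 of 13 (median 3.36). The list summed to 570769, 2366119 and 2113624 in CD24+Tomato+ and 147267, 504392 and 633334 in Tomatoneg libraries. Replicate 1 was the lowest of each group, and the lowest CD24+Tomato+ library was below the highest Tomatoneg library, where Reg3g alone gave 460303 of the sum. Lyz1, the Paneth lysozyme, was at 172202, 644306 and 515378 in CD24+Tomato+ and 13501, 50616 and 48830.5 in Tomatoneg libraries (3.58 ± 0.75, adjusted P = 0.0239). Itln1, the intelectin that binds microbial sugars, had 89189, 272454 and 312045 against 9403, 23269 and 32249 (3.36 ± 0.66, adjusted P = 0.02). Mmp7, the protease that activates α-defensins, had 14623, 40274 and 44888 against 1525, 5131 and 5690.0 (3.07 ± 0.62, adjusted P = 0.0211). In each, replicate 1 was the lowest library of both groups, and the groups did not overlap. Ang4, a bactericidal ribonuclease, was 3.64 and Pla2g2a, a phospholipase that kills bacteria, 3.08 log2 units higher. Mptx2, a mucosal pentraxin, did not pass (3.44 ± 0.98, adjusted P = 0.0602), although its groups did not overlap, and with the block it was called. Reg3g, a lectin against Gram-positive bacteria that Paneth cells share with enterocytes, was at 58481, 142623 and 214099 against 103703, 342415 and 460303, and did not pass (-1.06 ± 0.81, adjusted P = 0.444). It was below its Tomatoneg partner in all 3 pairs and was called lower with the block. Without Tomatoneg replicate 1, 10 of the 13 rose, and with replicates 2 and 3 of both groups only, 12.

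The α-defensins, microbicidal peptides of Paneth granules, rose in 20 of 25 tested genes (median 3.81), and in all 25 with the block. The summed level was 888187, 5165827 and 3780198 in CD24+Tomato+ and 76427, 306504 and 316255 in Tomatoneg libraries. Replicate 1 was the low library of both groups, yet the lowest CD24+Tomato+ sum was above every Tomatoneg sum. Defa24 had 132056, 710294 and 558475 against 6974, 44430.5 and 43418 (3.98 ± 0.94, adjusted P = 0.0339). Defa22 had 27278, 224290 and 146249 against 3224, 11459 and 12371 (3.64 ± 0.86, adjusted P = 0.0338). The 25 are not 25 separate measurements. Of 31-base words in their transcripts (19 genes with transcripts in GENCODE M21), a median of 7.54% occurred in no other gene, with a range of 0% to 42.9%, so reads can be split between copies and single-gene values are uncertain. Without Tomatoneg replicate 1, 16 were called.

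The promoters are alike too, and 3 are shown to let the copies be compared over the 60 bases before the start site (RefSeq, GRCm38.p6, 5′ to 3′), with TATAAA in capitals.
Defa22 (chr8:21162217-21162276, + strand): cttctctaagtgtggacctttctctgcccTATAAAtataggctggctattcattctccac
Defa20 (chr8:21509198-21509257, + strand): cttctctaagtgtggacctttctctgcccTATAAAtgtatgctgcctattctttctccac
Defa23 (chr8:21054980-21055039, + strand): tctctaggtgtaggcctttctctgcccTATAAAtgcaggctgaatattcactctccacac
TATAAA, searched on both strands, was in 13 of the 14 α-defensin genes with a 300-base window (92.9%) and in 7.51% of all tested genes with one. It began 31 bases before the start site in Defa22 and Defa20 and 33 in Defa23. Copies of one another are not independent matches.

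All 14 goblet cell genes rose (median 2.60), and 13 without Tomatoneg replicate 1. Agr2, which folds mucins, was at 83660.5, 119802 and 115106 in CD24+Tomato+ and 6599, 21589 and 13906 in Tomatoneg libraries (3.06 ± 0.47, adjusted P = 0.00974). Tff3, the trefoil peptide of mucus, was at 97431, 96016 and 126996 against 9069, 18214 and 18749.7 (2.86 ± 0.38, adjusted P = 0.007). Muc2, the gel-forming mucin, had 6659.7, 3929 and 3566 against 1152, 1531 and 1217 (1.81 ± 0.28, adjusted P = 0.00997), the smallest rise of the list. The groups did not overlap in any of the 14, while 21.6% of all genes were apart in this direction. Spink4 was 3.15 log2 units higher, Fcgbp, a protein that cross-links mucus, 2.62, and Zg16, a lectin of the mucus, 1.94. The list summed to 1119573, 1060380 and 1342598 in CD24+Tomato+ and 153619, 229396 and 213947 in Tomatoneg libraries. Unlike for Paneth genes, CD24+Tomato+ replicate 1 was within the range of its group. Spdef, which matures goblet and Paneth cells, was at 4290.3, 5796 and 5854 against 707, 1111 and 860.2 (2.58 ± 0.25, adjusted P = 0.00236).

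Tuft cell genes rose in 14 of 25 (median 3.27) and in 20 without Tomatoneg replicate 1. Trpm5, the cation channel of taste-like signalling, was at 5102, 3786 and 4233 in CD24+Tomato+ and 310.5, 556 and 471 in Tomatoneg libraries (3.32 ± 0.27, adjusted P = 0.00152). Dclk1, the kinase by which tuft cells are commonly stained, was at 3366, 2330.0 and 2322 against 338, 453 and 253 (2.96 ± 0.29, adjusted P = 0.00281). Pou2f3, the factor without which tuft cells do not form, had 716, 812 and 711 against 101, 134 and 152 (2.54 ± 0.31, adjusted P = 0.00567). In all 3 genes the CD24+Tomato+ libraries lay close together and apart from Tomatoneg. Alox5 and Alox5ap, which start leukotriene synthesis, were 3.27 and 2.22 log2 units higher. Gfi1b and Chat were low in Tomatoneg (Chat at 0, 1.78 and 0.9) and passed. Il25, the tuft cell cytokine, did not pass, with 26.6, 35.1 and 15.4 against 0, 8.89 and 10.1 (2.41, adjusted P = 0.23), nor did Il17rb (4.30, adjusted P = 0.106). Tas1r3, a taste receptor subunit, was at 76.9, 42 and 58.2 against 92.1, 36.6 and 66.3 (-0.08 ± 0.61, adjusted P = 0.946). Vav1, Inpp5d, Ptgs1 and Alox5 are also known in blood cells. Of the blood cell lists given below, 12 of 17 T cell genes and 4 of 9 B and plasma cell genes were lower in CD24+Tomato+ cells, while the myeloid list was mixed, with 2 of 9 genes lower and C1qa, a complement gene of macrophages, at 35, 40.1 and 51 against 0, 3.33 and 13.4 (3.42, adjusted P = 0.0915). Without Tomatoneg replicate 1, in which C1qa was at 0, the myeloid median was -1.15 and 3 myeloid genes were lower. The part of blood cell RNA in the tuft cell genes was not tested.

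**Figure D3:**
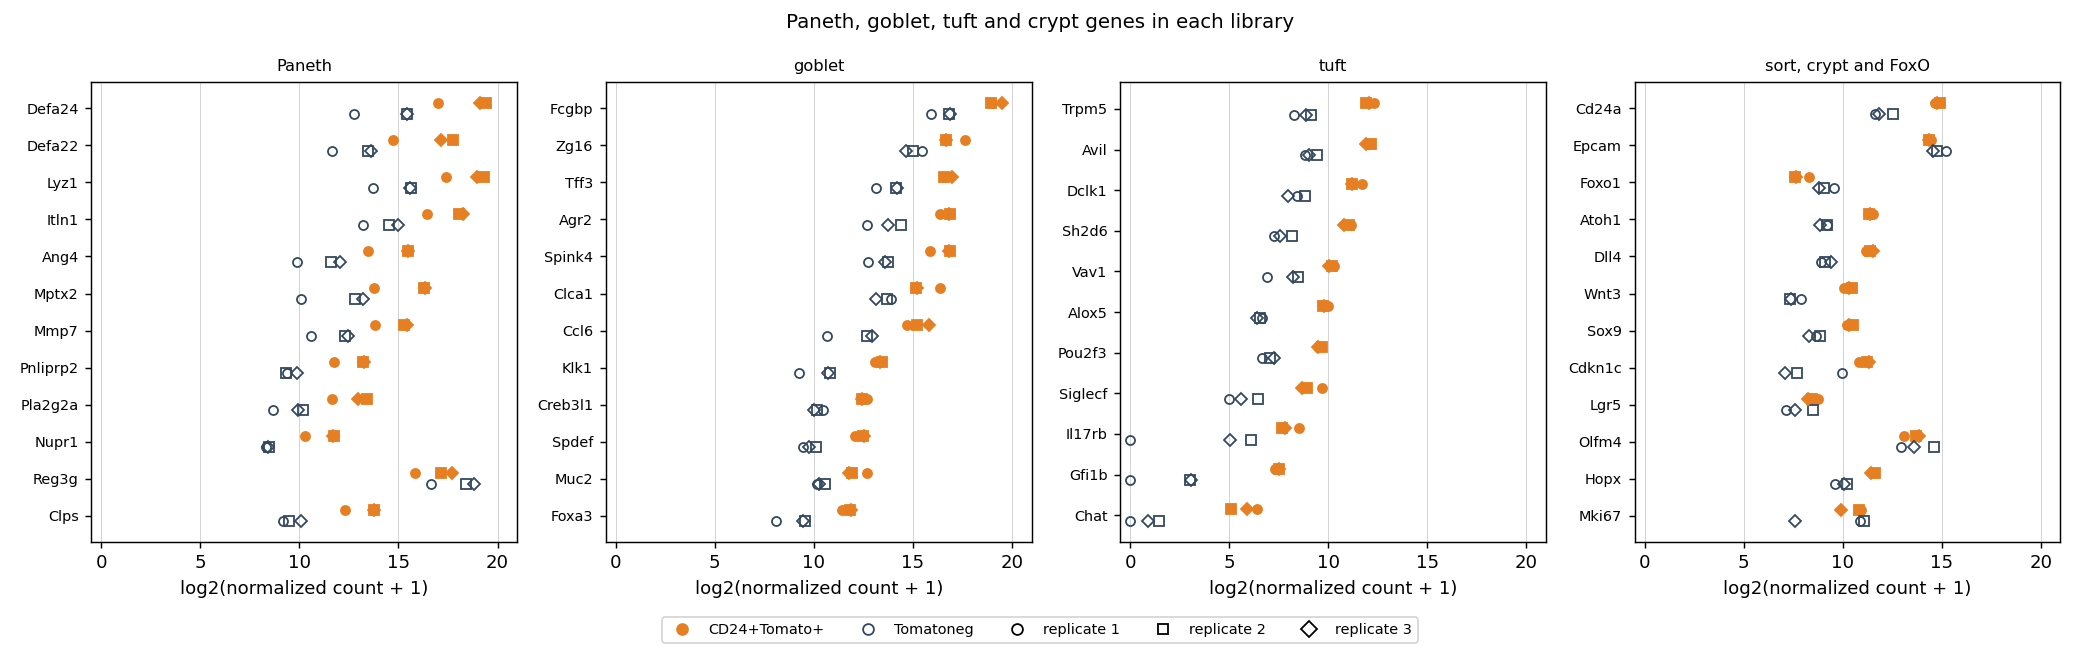
Level of Paneth genes (with Clps, from the acinar list), goblet genes, tuft genes and genes of the crypt, the sort and FoxO in each library as log2(normalized count + 1). Filled orange symbols are CD24+Tomato+ and open symbols Tomatoneg libraries, and the shape gives the replicate. Paneth genes are lowest in replicate 1 of both groups, except Pnliprp2 in Tomatoneg, goblet and tuft genes are apart between groups, and Lgr5, Olfm4 and Mki67 overlap.

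Factors that direct the secretory branch rose in 10 of 12 genes (median 2.14). Atoh1, the factor on which all secretory cells depend, was at 2998, 2546 and 2648 in CD24+Tomato+ and 582, 582 and 458 in Tomatoneg libraries (2.34 ± 0.21, adjusted P = 0.00187). Sox9, needed for Paneth cells and expressed in the crypt base, had 1200.0, 1469 and 1289 against 399.8, 459.9 and 315 (1.76 ± 0.25, adjusted P = 0.00806). Gfi1, which keeps goblet and Paneth cells from the EEC fate, was 1.97 and Bhlha15, a factor of secretory capacity, 2.51 log2 units higher. Xbp1 and Klf15 did not pass (0.57 and 1.88, adjusted P = 0.292 and 0.166). Of 17 Notch pathway genes 3 rose and 1 fell. Those that rose were Atoh1, which Notch represses, and the ligand genes Dll4, at 2329, 2681 and 2937 against 483, 562 and 672 (2.22 ± 0.22, adjusted P = 0.00288), and Dll1 (1.22 ± 0.31, adjusted P = 0.0422). Numb, a Notch inhibitor, fell (-1.14 ± 0.29, adjusted P = 0.0442). Hes1, the effector that Notch switches on, had 403, 392 and 555 against 337, 701 and 678, with overlapping groups (adjusted P = 0.661). Without Tomatoneg replicate 1, 5 rose and 0 fell.

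Of 17 stem cell genes 1 rose (5.88%, a share below the 8.02% of all genes), with a list median of 0.63. Lgr5, the Wnt receptor partner that marks crypt base stem cells, was at 427, 346 and 299 in CD24+Tomato+ and 138, 368 and 193 in Tomatoneg libraries, with overlap (adjusted P = 0.338). Olfm4, a further stem cell marker, was at 8908, 13133 and 14987 against 8003, 24649 and 12623 (-0.17 ± 0.43, adjusted P = 0.834). Hopx, a marker of slowly cycling crypt cells, was the member that rose, at 3070.4, 3191 and 2720.0 against 781, 1212 and 1073 (1.57 ± 0.23, adjusted P = 0.00898). With the block 4 of the 17 rose, and without Tomatoneg replicate 1, 3. Of 24 niche ligands and Wnt targets, 5 rose and 1 fell (median 0.47), and without Tomatoneg replicate 1, 9 rose and 1 fell. Wnt3, the Wnt that Paneth cells supply to stem cells, was at 1078, 1422 and 1273 against 239, 162 and 167 (2.74 ± 0.29, adjusted P = 0.00324). Areg, an EGF-family ligand, fell (-2.24 ± 0.52, adjusted P = 0.0327). The direct Wnt target Axin2 did not pass (-0.28 ± 0.22, adjusted P = 0.457). Of 34 cell cycle genes 0 passed by limma, with 1 higher at an unadjusted P under 0.05 and 0 lower, and 1 rose with the block. Their median was 0.09, and it was -0.28 without Tomatoneg replicate 1. Mki67 was at 1947, 1845 and 963 against 1892, 2162 and 192. Among CDK inhibitors, which hold cells out of the cycle, Cdkn1c rose, at 1825, 2425 and 2559 against 1016, 203 and 136 (2.88 ± 0.69, adjusted P = 0.0355), and Cdkn2b fell (-1.48 ± 0.20, adjusted P = 0.0069). Cdkn1c was highest in Tomatoneg replicate 1 among its group, and no Tomatoneg value reached the CD24+Tomato+ values. With the block Cdkn1a was called higher as well.

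Absorptive genes were lower in CD24+Tomato+ cells. Of 15 enterocyte markers 9 fell, against 4.89% of all genes, with a median log2 fold change of -2.50. With the block 14 fell, and without Tomatoneg replicate 1, 8. The list summed to 231117, 99427 and 92771 in CD24+Tomato+ and 1462058, 428351 and 488681 in Tomatoneg libraries. Replicate 1 was the highest library of both groups, and the groups did not overlap. Anpep, aminopeptidase N of the brush border, was at 49015, 20487 and 21027 against 387686, 95442 and 129016 (-2.61 ± 0.64, adjusted P = 0.0385). Alpi, the intestinal alkaline phosphatase, was at 8478, 2833 and 3009.7 against 54524, 18638 and 22978 (-2.78 ± 0.55, adjusted P = 0.0203). In both genes every CD24+Tomato+ library was below every Tomatoneg library. Lct (lactase) and Sis (sucrase-isomaltase) spread widely between replicate numbers and did not pass. Lct was at 8699.6, 1164 and 1043 against 68699, 9074 and 8663 (adjusted P = 0.107). Sis was at 17446, 4967 and 2921 against 58981, 21040.1 and 5804 (adjusted P = 0.308). Each CD24+Tomato+ value was below its same-numbered Tomatoneg partner, and with the block both genes were called lower.

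Fat absorption and lipoprotein genes fell in 15 of 21 and rose in 1 (median -2.07). Mttp, which loads fat onto apolipoprotein B, was at 12794, 5399 and 7226 in CD24+Tomato+ and 85260.1, 33493 and 36339 in Tomatoneg libraries (-2.57 ± 0.47, adjusted P = 0.0163). Apoa1, the main protein of HDL, had 29849, 9380 and 6587 against 214423, 54442 and 63492 (-2.88 ± 0.72, adjusted P = 0.0399). Creb3l3, a factor that turns on lipoprotein genes, had 1167, 438 and 697 against 6805, 3266 and 6399.5 (-2.88 ± 0.43, adjusted P = 0.00923). All 3 had groups that did not overlap. Mogat2 and Dgat1, which rebuild triglyceride, had log2 fold changes of -2.43 and -1.91, and Abcg5, a subunit of the sterol exporter, had -2.02. Scarb1, the HDL receptor, was the exception, at 1528, 1344 and 1508 against 412, 140.3 and 178 (2.74 ± 0.41, adjusted P = 0.00969). Apoa4 and Apob missed the threshold (adjusted P = 0.074 and 0.175) and were called with the block.

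Brush border enzymes and structural proteins fell in 9 of 24 (median -1.80), and in 19 with the block. Mep1b, a meprin protease, was at 3842, 1692 and 1435 in CD24+Tomato+ and 21771, 13365 and 11039 in Tomatoneg libraries (-2.81 ± 0.42, adjusted P = 0.0096). Treh, the enzyme for trehalose, had 1331, 409 and 312 against 10560.3, 2919 and 3072 (-3.04 ± 0.67, adjusted P = 0.0278). Vil1 (villin, which bundles actin) and Cdhr5 (a cadherin that links microvillus tips) did not pass, with log2 fold changes of -1.54 (adjusted P = 0.0668) and -0.85 (adjusted P = 0.243). With the block Vil1 was called lower and Cdhr5 was not. Nutrient and ion transporters fell in 15 of 24 (median -2.20), in 23 with the block and in 15 without Tomatoneg replicate 1. Slc51b, which exports bile acids, was at 839.9, 535 and 448 against 7382, 3408 and 4357 (-3.03 ± 0.36, adjusted P = 0.00525). Slc9a3, the sodium-proton exchanger, was at 1781, 1014 and 778 against 15062, 7511 and 5503 (-2.93 ± 0.44, adjusted P = 0.00957). Slc5a1, the sodium-glucose cotransporter, was at 14430.5, 5445 and 5143 against 78782, 31698 and 29284 (-2.50 ± 0.53, adjusted P = 0.025). None of these groups overlapped. Slc7a9, Slc3a1 and Slc7a7, amino acid carriers, had log2 fold changes of -2.24, -1.88 and -1.85. Slc28a2, a nucleoside carrier, was the only one of the 24 with a positive log2 fold change, and it did not pass (0.60 ± 0.55, adjusted P = 0.532).

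Of 22 transcription factors of enterocyte and gut identity 6 fell (median -0.81), and with the block 11 fell and 1 rose. Nr1i3 (CAR) and Nr1i2 (PXR), sensors of foreign compounds, fell, with log2 fold changes of -2.11 ± 0.35 and -1.23 ± 0.27 (adjusted P = 0.0123 and 0.0263). Vdr, the vitamin D receptor, was at 4887, 3956 and 4979 against 11524, 7859.8 and 8595 (-1.01 ± 0.23, adjusted P = 0.0308). Cdx2, which specifies intestine, was at 3504, 3419.8 and 3453 against 4306, 4391 and 5003, and did not pass (-0.40 ± 0.18, adjusted P = 0.197). Hnf4a, the main enterocyte factor, also did not (-0.49 ± 0.23, adjusted P = 0.218). Both had narrow spreads and groups that did not overlap. Detoxification and retinoid genes fell in 11 of 29 (median -2.18), and with the block 22 fell and 2 rose. Sult1b1, a sulfotransferase, was at 1732, 851 and 1222 against 7610.0, 6408 and 5864 (-2.44 ± 0.29, adjusted P = 0.00525). Ces2e, a carboxylesterase, had 5969.6, 3121 and 4399.6 against 27263, 18874 and 25679.5 (-2.44 ± 0.30, adjusted P = 0.00553). Cyp3a11, the drug-metabolizing enzyme, was at 593, 85.4 and 18.4 against 5645, 568 and 28, and did not pass (-2.18 ± 1.95, adjusted P = 0.52). It was called lower with the block.

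**Figure D4:**
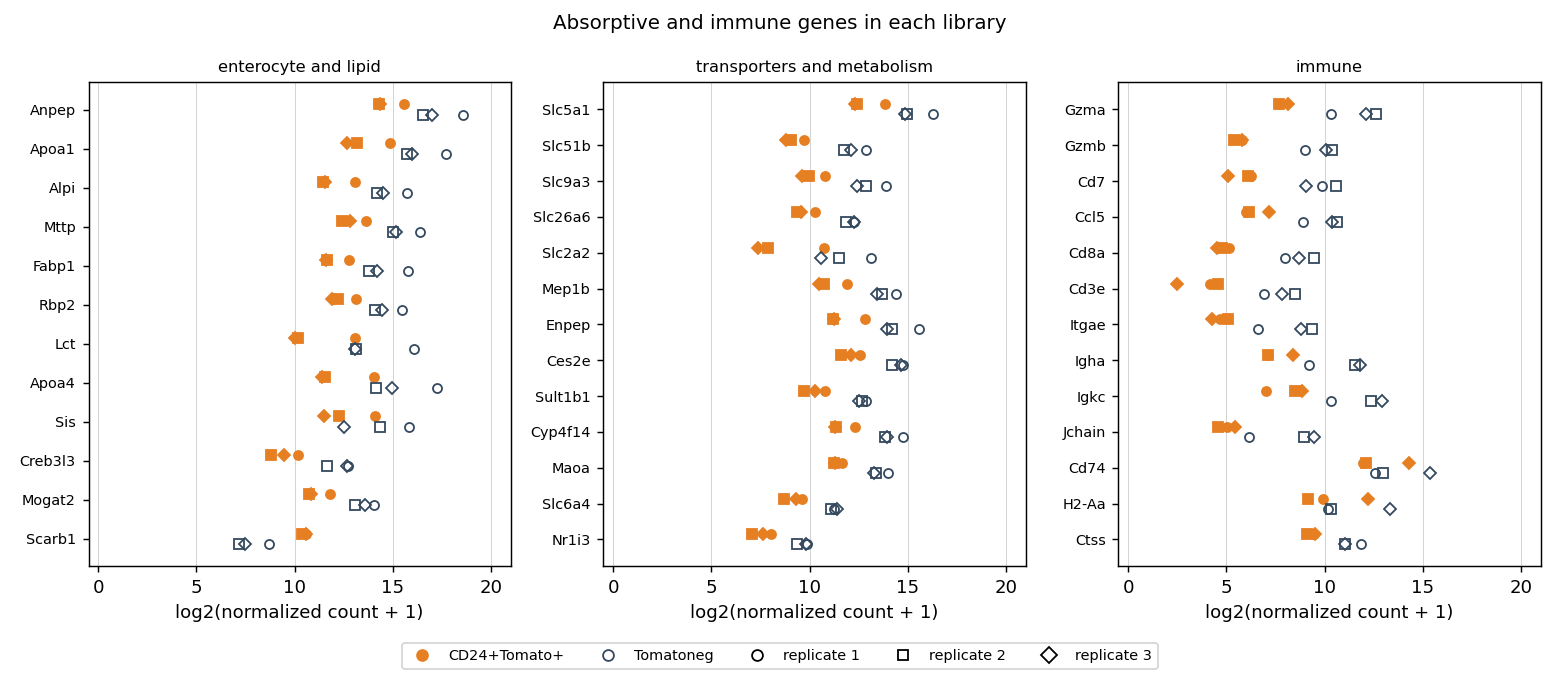
Level of enterocyte and lipid genes, of transporters and metabolic enzymes, and of immune genes in each library as log2(normalized count + 1). Filled orange symbols are CD24+Tomato+ and open symbols Tomatoneg libraries, and the shape gives the replicate. Genes of the 2 absorptive panels are highest in replicate 1 of both groups, except Slc6a4 in Tomatoneg, T and B cell genes are apart between groups, Cd74 and H2-Aa are highest in replicate 3 of both, and Scarb1 goes against the other lipid genes.

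T cell markers were also lower in CD24+Tomato+ cells, 12 of 17 (median -3.58). Gzmb, granzyme B of cytotoxic cells, was at 54.4, 40.6 and 54.9 in CD24+Tomato+ and 517, 1332 and 1078 in Tomatoneg libraries (-4.17 ± 0.46, adjusted P = 0.00385). Cd3e, a subunit of the T cell receptor complex, was at 16.6, 22.9 and 4.51 against 121, 362 and 228 (-4.03 ± 0.78, adjusted P = 0.0196). Itgae, the integrin that tethers intraepithelial lymphocytes to epithelium, had 24.5, 32.9 and 18.5 against 96.7, 666 and 439.9 (-3.58 ± 0.78, adjusted P = 0.0272). No values overlapped, and Tomatoneg replicate 2 was the highest for all 3. The list's sum was 774, 645 and 697 against 4679, 14615 and 9961. B and plasma cell genes were lower in 4 of 9 (median -3.18), with Igha, the IgA heavy chain, at 137, 137 and 336 against 600.5, 2955 and 3616 (-3.32 ± 0.71, adjusted P = 0.0254). Of 9 myeloid genes 2 were lower, Itgam and Tyrobp, with a median of -0.19. That median was 0.76 without Tomatoneg replicate 2 and -1.41 after quantile normalization. Without Tomatoneg replicate 1 it was -1.15, and 3 myeloid genes were lower. Of 6 stromal and endothelial genes 0 passed by limma, with 3 lower at an unadjusted P under 0.05 and 0 with the block, and the list median was -2.37. Lymphocyte markers were thus present in libraries sorted as epithelial cells, and they were lower in the same group as the absorptive genes. In Tomatoneg cells the T cell sum was lowest in replicate 1, the library with the highest enterocyte sum. The part of lymphocyte RNA in the lower values of other genes was not tested.

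Of 9 MHC class II genes 1 was lower, Ctss, a protease of the pathway, at 705, 558 and 731 against 3708, 2088 and 2092 (-1.94 ± 0.29, adjusted P = 0.0093), and with the block 6. Cd74, the invariant chain, was at 3979, 4432 and 20127 against 5992, 8027 and 42329.6. Replicate 3 was the highest library in both groups, and each CD24+Tomato+ value was below its own Tomatoneg partner. Of 28 interferon-stimulated genes 2 fell (7.14%, against 4.89% of all genes). B2m, the light chain of MHC class I, was among them (-1.26 ± 0.30, adjusted P = 0.0349). With the block 10 of the 28 fell, where 9.95% of all genes did. The median of the list was -0.58. Reg lectins split. Reg4, known in EEC, was at 17636, 13528 and 9668 against 372, 744 and 494 (4.68 ± 0.33, adjusted P = 0.00107). Reg1 fell, at 3416, 3247 and 2805 against 9750.1, 18097 and 10640.4 (-1.97 ± 0.28, adjusted P = 0.00795), as did Reg3a (-1.99 ± 0.28, adjusted P = 0.00806). Reg3b had 134061, 218555 and 395856 against 405054, 707444 and 1105030, groups that did not overlap (adjusted P = 0.278), and with the block 4 of the 7 genes fell.

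Secretory cells carry a large ER. Of 30 ER folding and stress genes 2 rose (6.67%, median 0.59), a share below the 8.02% of all genes. With the block 10 of the 30 rose, where 10.8% of all genes did, and without Tomatoneg replicate 1, 5 rose. Ern2, the IRE1β sensor of goblet cells, was at 3553, 2967 and 3041 against 648, 555 and 584 (2.42 ± 0.20, adjusted P = 0.00152). Pdia6, a disulfide isomerase, was the other (1.21 ± 0.27, adjusted P = 0.0288). The chaperone Hspa5 did not pass (0.55 ± 0.30, adjusted P = 0.281), and neither did the stress factor Ddit3 (-0.03 ± 0.41, adjusted P = 0.978). Nuclear genes of oxidative phosphorylation were lower in 6 of 80 (7.5%, against 4.89% of all genes, median -0.52). With the block 31 of them were lower, where 9.95% of all genes were. Of the 13 mitochondrially encoded genes 0 passed by limma (median -0.67), with 1 lower at an unadjusted P under 0.05 and 2 with the block. Of 77 ribosomal protein genes 0 passed by limma, 1 was higher at an unadjusted P under 0.05 and 6 rose with the block, with a median of 0.40 that became -0.01 without Tomatoneg replicate 1. Immediate early genes, which cell dissociation is known to induce, rose in 5 of 17 (median 0.99). Egr1 was at 6688, 7856 and 6579 against 2912, 3822 and 3961 (0.99 ± 0.21, adjusted P = 0.0246), and Fos did not pass (0.31 ± 0.21, adjusted P = 0.401). With the block 8 rose and 1 fell. Their part in other differences was not tested.

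Genes of FoxO and insulin signalling, the pathway of the deleted factor, were called in 1 of 16, which fell (median -0.18). That share is 6.25%, where 4.89% of all genes fell. With the block 5 were called, where 10.8% of all genes rose and 9.95% fell. Sesn1, a known FoxO target, was at 902, 481 and 440.1 in CD24+Tomato+ and 2148, 1717 and 1071 in Tomatoneg libraries (-1.46 ± 0.38, adjusted P = 0.0457). Foxo3 was at 994, 602 and 475 against 1399.9, 674 and 637 (-0.36 ± 0.41, adjusted P = 0.62). Foxo4 had 727, 706 and 817 against 336, 476 and 517 (0.78 ± 0.27, adjusted P = 0.107). Foxo3 overlapped between the groups and Foxo4 did not, and neither passed. Irs1, the insulin receptor substrate, had 362, 200.4 and 85.6 against 57.3, 0 and 2.25, which did not overlap, and an adjusted P of 0.0687. With the block Irs1 and Pdk4 were called higher and Foxo1, Sesn1 and Sgk1 lower, and without Tomatoneg replicate 1, 2 genes of the list were higher and 0 lower.

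**Figure D5:**
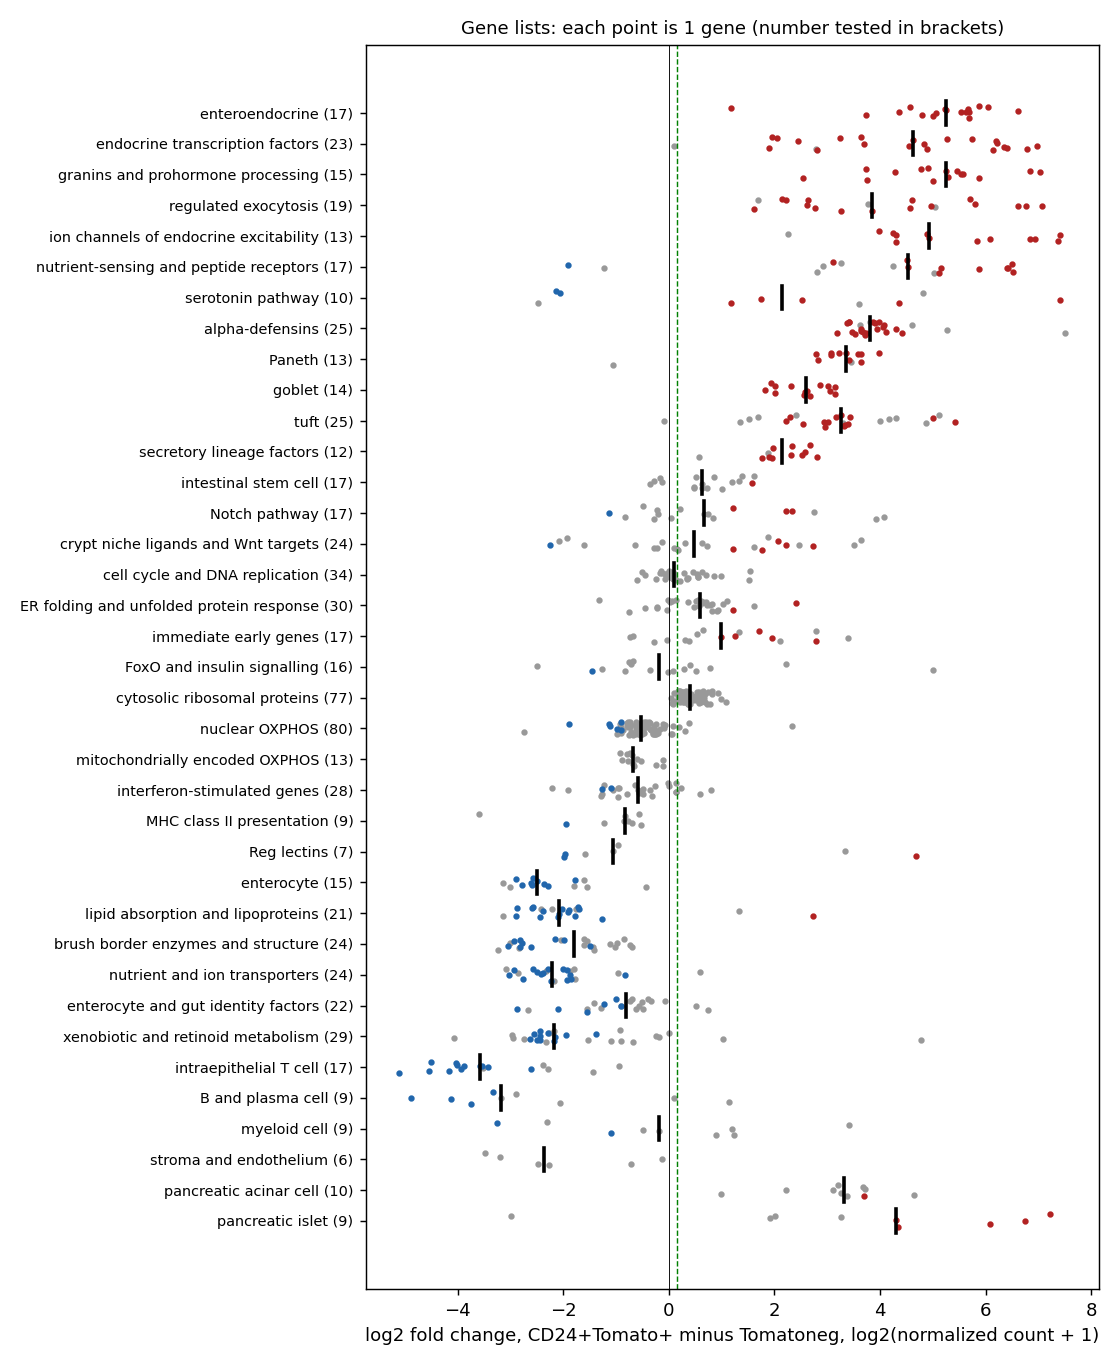
Log2 fold change, CD24+Tomato+ minus Tomatoneg, of each tested member of the gene lists (horizontal axis, list and number of genes tested on the vertical axis). Red points rose, blue points fell and grey points did not pass the threshold, black bars are list medians, and the dashed line is the median of all tested genes (0.16). The EEC and granin lists lie furthest to the right, with medians of 5.25, and the T cell list furthest to the left, with a median of -3.58.

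Ranked by fold change alone, with a mean of at least 100 in the higher group, none of the 12 leading genes that rose was a hormone of the EEC list. All 12 were listed at 0 in Tomatoneg replicate 1, so this order rests on zeros and the pseudocount. A second ranking, chosen after the values were seen, kept only genes above the level of 3 reads in every library. Ghrl, Sst and Chgb of the EEC list led its rises, with log2 fold changes of 6.62, 6.05 and 5.87. Cog3, a subunit of a Golgi tethering complex (chr14:75702350-75754517, GRCm38), was at 1109.9, 1059 and 951 in CD24+Tomato+ and 0, 17.3 and 0 in Tomatoneg libraries (8.62 ± 1.16, adjusted P = 0.007). Every 31-base word of its transcripts was its own. Asic5, a channel gated by bile acids, had 1607, 1336 and 603 against 0, 22.1 and 1.12 (8.22, adjusted P = 0.00808). Afp, for α-fetoprotein, had 2787, 1150.0 and 1005 against 0, 31.1 and 8.99 (7.75, adjusted P = 0.00998). All were listed at 0 in Tomatoneg replicate 1. Of the 12, 4 were copies of Serpina1, the gene of α1-antitrypsin, a plasma protease inhibitor, with Serpina1e at 2724, 931 and 838 against 0, 11.7 and 4.73 (8.27, adjusted P = 0.00548). Serpina1d had 534, 254 and 304 and was listed at 0 in every Tomatoneg library. They lie side by side on chromosome 12 (Serpina1d at chr12:103763594-103773592, Serpina1e at chr12:103946931-103958975) and share much sequence, with 14.2% of words of its own in Serpina1c and 45.8% in Serpina1e, so the split between copies is uncertain. Col6a5, a collagen chain, had 268, 113 and 153 and was also at 0 in every Tomatoneg library. Scrn1 and Marchf4, with log2 fold changes of 7.26 and 7.36, and Trpa1 and Scn3a, described above, completed the set.

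Of the 12 leading genes that fell, 11 are known from lymphocytes and other leukocytes. Igkv1-110, an immunoglobulin light chain segment, was at 0, 15.9 and 0 in CD24+Tomato+ and 62.6, 279 and 421 in Tomatoneg libraries (-6.25, adjusted P = 0.0255). Trac, the T cell receptor α constant segment, had 2.89, 3.04 and 0 against 23.7, 143 and 177 (-5.10, adjusted P = 0.0259). Itgb2, the β2 integrin of leukocytes, had 10.7, 3.66 and 5.17 against 567, 182 and 125 (-5.08 ± 0.80, adjusted P = 0.0102). Each was near or under the level of 3 reads in some CD24+Tomato+ libraries, and none overlapped. Cd79a and Igkv1-135 (B cells), Il2rg, Selplg, Arhgap30, Zap70, Nkg7 and Sh2d2a (other lymphocyte and leukocyte genes) had log2 fold changes between -5.18 and -4.44. The other gene was Rps27a-ps3, a ribosomal protein pseudogene, at 0, 23.6 and 17.7 against 1052, 379 and 406 (-6.15, adjusted P = 0.0217), which can take reads from its parent gene.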

How the data were processed

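RNA-seq libraries were made by the study from poly-A RNA of sorted small intestinal epithelial cells and sequenced on an Illumina NovaSeq. Per the labels and the study's methods, the authors estimated transcript counts with kallisto (0.44.0) against GRCm38, summed them to genes and normalized them with DESeq2. The deposited table holds the resulting normalized signal, 1 value per gene symbol and library, and replicates were not pooled. The table with CD24negTomato+ libraries was normalized separately and was not used here.

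The authors tested with DESeq2. Since the deposited values are normalized, limma (3.58.1, R 4.3.3; lmFit, eBayes with a variance trend) was run on log2(normalized count + 1). A gene was tested where its 6 libraries averaged 10 or more, with P values adjusted by Benjamini-Hochberg over all 13874 genes. The pseudocount lowers the change of low genes, while a value at 0 in a single library of a group can raise it. Ffar4, listed at 0 in Tomatoneg replicate 1, had group means of 685 in CD24+Tomato+ and 143 in Tomatoneg cells. Its log2 fold change of 4.24 was larger than the ratio of these means gives. The script was tested on simulated data with known changes. These data had the same dispersion for all genes, no replicate effect and no library with excess zeros, so the test does not cover those features. Depth was estimated from the step between low values, on whose multiples 33.2% to 56.5% of low values fell, so it is approximate. Labels call the replicates biological, and P values measure the spread between these libraries.

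Replicate numbers come from the sample titles. Deviations from the group means correlated between same-numbered libraries at 0.283, 0.18 and 0.375, so the numbers were taken to pair the libraries. A replicate block was the paired alternative, and its values stand beside many, but not all, of the results that it changed.

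The gene lists were chosen with earlier results of these data known, and no list was tested. Some list members count in the totals but are not reported here by name. Named genes were the 12 with the largest change in each direction (same direction in all pairs, mean of at least 100 in the higher group), the leading and most abundant members of each list, and Foxo1, Cd24a, Epcam, Neurog3, Ins1 and Ins2. Alternatives were pseudocounts of 0.1 and 10, filters of any value above 0 and of a mean of 50, equal totals, quantile normalization, the block, no variance trend, a minimum log2 fold change of 1, replicates 2 and 3 alone, and leaving out each library. Positions are from GENCODE M21 (GRCm38) and were found for 98.0% of tested genes. Promoters are from RefSeq (GRCm38.p6), 250 bases before to 50 after the start, and 10619 tested genes had one.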

Additional observations from a re-analysis of the deposited data

How the results depend on the processing

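The count of genes higher in CD24+Tomato+ was 1113, and 731 with a pseudocount of 0.1. The count of genes lower in CD24+Tomato+ was 678, with 1036 after quantile normalization, 1381 with the replicate block and 429 without a variance trend. Leaving out 1 library at a time gave 107 to 1564 higher and 30 to 829 lower genes, the fewest without CD24+Tomato+ replicate 2 and the most without Tomatoneg replicate 1. The cause was not tested. The log2 fold change of Ins1 was -0.010 after quantile normalization. The log2 fold change of Ins2 went from -0.13 without Tomatoneg replicate 1 to 3.51 without CD24+Tomato+ replicate 1. Of 30 named genes, calls were lost for 4 with a pseudocount of 0.1, for 2 with a mean of at least 50, for 19 without CD24+Tomato+ replicate 2, for 13 without CD24+Tomato+ replicate 3 and for 4 each without CD24+Tomato+ replicate 1, Tomatoneg replicate 2 or Tomatoneg replicate 3. The replicate block changed no named gene's call among these 30 other than that of Foxo1, and its effect stands beside many lists. List medians changed sign for myeloid, MHC class II (0.10 without Tomatoneg replicate 3), cell cycle and ribosomal protein genes (-0.01 without Tomatoneg replicate 1). With 3 libraries per group and a limit near 3 reads, low genes at 0 in Tomatoneg replicate 1 are the least certain.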

Other observations

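The genes and families in this section were chosen after their values had been seen, and nothing is drawn from them. Genes are given by their values, and families by how many members passed the limma threshold over all genes. Several genes of plasma proteins were higher in CD24+Tomato+ cells beside Afp and the Serpina1 copies. Gpx3, the plasma glutathione peroxidase, was at 6368, 4231 and 2866 in CD24+Tomato+ and 104, 101 and 67.5 in Tomatoneg libraries. Rbp4, which carries retinol, was at 2340.5, 2234 and 1709 against 0, 62.6 and 59.5, and Ambp, the precursor of a heme-binding protein and a protease inhibitor, was at 2747, 1508 and 697 against 37, 36.5 and 19.2. No CD24+Tomato+ value of these genes came near a Tomatoneg value. Of 39 potassium channel subunit genes tested, 16 rose and 1 fell (median 3.59). Of 11 voltage-gated calcium channel subunit genes 9 rose (median 4.31), and of 6 sodium channel subunit genes 4 rose (median 4.44). Kcnk16, a background potassium channel known from islets, was at 1152, 1534 and 1565 against 0, 44.2 and 23.8. Guca2a, for guanylin, a peptide that regulates fluid secretion, was at 21268, 29984 and 28630 against 4414, 5361 and 5895. Krt18, a keratin of simple epithelia, was at 30456, 35180.4 and 38792 against 5252, 8806 and 10478.

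On the other side, 4 of 7 Btnl genes fell (median -2.06). These butyrophilin-like proteins are known to sustain intraepithelial γδ T cells. Btnl1 was at 1630.1, 1133 and 1340.1 in CD24+Tomato+ and 10237, 6036 and 7563 in Tomatoneg libraries, and Btnl6 was at 1237, 907 and 1041 against 5389.7, 4137 and 3823. Ccl25, the chemokine that draws lymphocytes to the small intestine, was at 2993, 2156 and 2419 against 13581, 10500 and 11279.5. Il18, an epithelial cytokine, was at 601, 431 and 539 against 2753, 3166 and 2150.1. In these genes every CD24+Tomato+ value was below every Tomatoneg value. Fabp6, the bile acid binding protein of the ileum, was at 4119, 4076 and 3342 against 31158, 25006 and 27820.4. Of 96 immunoglobulin and T cell receptor segments tested, 15 fell (median -3.34). Gm28439, a gene model, was at 6728 in Tomatoneg replicate 1 and was listed at 0 in the other 5 libraries.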
